A study of Drosophila melanogaster with 2 samples.

Results

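Binding of CG32121 fused to enhanced green fluorescent protein was mapped by chromatin immunoprecipitation with sequencing (ChIP-seq), with an antibody against the fluorescent protein, in whole transgenic *Drosophila melanogaster* pupae of 2 days. The labels give 1 group of 2 biological replicates, both of the same fusion strain and age, and no control sample was analysed here. Whole animals mix all tissues, so a peak does not show in which cells the protein was bound. The data are the authors' peak lists, and the number of reads behind them is unknown. The peaks described here are those in later introns: the summit lay more than 500 bp from every annotated transcription start site (TSS), in no exon, inside an intron of a protein-coding transcript and in the first intron of none. There were 1102 such peaks among the 7676 of the authors' conservative list, or 14.4% (Wilson 95% interval 13.6 to 15.2%). First introns, by the same rule, held 2180 peaks (28.4%), and intergenic sequence beyond the TSS distance held 913.

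Introns of flies carry many enhancers, the sequences that direct when and where a gene is transcribed, and long introns close to the start of a gene are especially rich in them. The first intron lies next to the promoter and often shares its open chromatin, whereas a summit in a later intron is separated from the promoter by a further exon. Enhancers in introns may act on the gene that holds them or on a neighbour, so the gene named for a peak here is its host and not a shown target. Intervals on shares and on peaks per length cover counting error, and medians carry a binomial 95% interval.

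The sequences at the strongest later-intron summits were rich in A and T. They are shown because base composition varied with signal, and because the first of them was the strongest peak of the whole list. The windows are those of 5 of the 6 strongest members, and that of Psc, which ranked 4 among them, is not shown. Each holds the summit and the 50 bases on each side, given from the plus strand of dm6, with runs of 8 or more A or T in capitals.

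CG11050, intron 2, chr2L:6612655-6612755: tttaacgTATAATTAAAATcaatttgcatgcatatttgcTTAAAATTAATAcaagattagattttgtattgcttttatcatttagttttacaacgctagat

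Trl, intron 2, chr3L:14759470-14759570: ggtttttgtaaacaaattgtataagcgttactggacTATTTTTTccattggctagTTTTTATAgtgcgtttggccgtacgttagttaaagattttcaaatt

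JIL-1, intron 3, chr3L:11084727-11084827: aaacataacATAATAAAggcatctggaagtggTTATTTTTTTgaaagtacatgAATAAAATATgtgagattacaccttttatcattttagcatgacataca

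Raf, intron 2, chrX:2300640-2300740: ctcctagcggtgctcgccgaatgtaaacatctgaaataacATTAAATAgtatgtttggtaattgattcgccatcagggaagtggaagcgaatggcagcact

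MYPT-75D, intron 2, chr3L:18640652-18640752: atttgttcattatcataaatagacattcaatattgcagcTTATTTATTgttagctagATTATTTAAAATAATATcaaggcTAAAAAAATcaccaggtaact

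The GC content of these windows was 21.8% at CG11050, 31.7% at Trl, 26.7% at JIL-1, 43.6% at Raf and 23.8% at MYPT-75D. Each of the 5 held at least 1 run of 8. The longest run was 17 bases at MYPT-75D and 8 bases at Trl and Raf, and Raf had a single run.

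Summits of middle signal, shown for contrast in the same way, included a window with a repeat of CAG and a window without any run of 8 A or T bases. The host Rbfox1 encodes an RNA-binding splicing regulator and mtgo a fibronectin type III protein.

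cv-c, intron 2, chr3R:14451367-14451467: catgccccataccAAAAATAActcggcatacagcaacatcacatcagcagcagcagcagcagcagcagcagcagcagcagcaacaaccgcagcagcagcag

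Rbfox1, intron 2, chr3L:10521806-10521906: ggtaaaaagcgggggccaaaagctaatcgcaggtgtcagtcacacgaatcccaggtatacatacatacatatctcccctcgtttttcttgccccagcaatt

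mtgo, intron 2, chr2L:16588919-16589019: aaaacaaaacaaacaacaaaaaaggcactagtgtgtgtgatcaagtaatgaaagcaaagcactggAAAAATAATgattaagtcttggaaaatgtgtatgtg

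These 3 windows had a GC content of 55.4% at cv-c, 47.5% at Rbfox1 and 31.7% at mtgo, and their peaks had signals of 119.4, 119.5 and 119.2 in that order.

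The strength of a peak is given as the authors' signal, whose scale is not stated in the sources used here. It ranks peaks within a list. Later-intron peaks had a median signal of 119.3 (114.9 to 124.3), against 123.1 (119.8 to 126.8) in first introns and 123.2 (119.6 to 129.6) in intergenic sequence, so the intervals of the medians overlapped. The strongest 10% of the whole list took in 76 later-intron peaks, or 6.90% of them, against 9.63% of the first-intron peaks and 12.5% of the peaks within 500 bp of a TSS. The share in later introns was close to the 7.23% of intergenic peaks and the 6.05% of peaks in exons. Of the 100 strongest peaks of the list, 5 lay in later introns, 24 in first introns and 4 in intergenic sequence.

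The strongest of all 7676 peaks was nevertheless a later-intron peak, at CG11050 on 2L. Its signal was 4291, with 1532 in replicate 1 and 2652 in replicate 2. The summit lay in an intron of 140 bp, 65 bp from the nearest exon and 1018 bp from the nearest TSS, and the peak of 708 bp extended over the neighbouring exons. The next strongest lay in Trl, which encodes the GAGA factor, a BTB-domain protein of promoters and Polycomb elements. It had a signal of 1453, with 525.5 in replicate 1 and 926.2 in replicate 2, and ranked 24 in the list. JIL-1, a histone H3 kinase of interphase chromatin, followed with 388.3 in replicate 1 and 676.0 in replicate 2. Psc, a Polycomb group protein, had 346.4 in replicate 1 and 606.6 in replicate 2. At Raf, the kinase that links Ras to the MAP kinase cascade, the values were 333.0 in replicate 1 and 608.2 in replicate 2.

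The 20 strongest later-intron peaks spread over 17 host genes, with signals of 513.6 to 4291. Other chromatin and transcription regulators among the hosts were upSET, a SET-domain protein, mam, the Mastermind coactivator of Notch, Myc, the growth regulator, and bs, the fly serum response factor. The nuclear receptor gene Hr4 and the transporter gene E23 belong to the ecdysone response. Fhos, a formin, Msp300, a nesprin that anchors nuclei, and MYPT-75D, a myosin phosphatase subunit, act on the cytoskeleton, and Pli is the fly Pellino. CG46385 and mtgo complete the set. Of the 20 summits 17 lay in intron 2 of the host, and an exception was Msp300, whose peak lay in intron 12. All 20 were in both replicates' own lists, and replicate 2 had the higher signal at 20 of 20.

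Each replicate also had its own thresholded list. Replicate 1's list overlapped 586 of the later-intron peaks, or 53.2% (50.2 to 56.1%), against 58.6% (56.5 to 60.7%) of first-intron peaks. Replicate 2's list overlapped 840 of them, or 76.2% (73.6 to 78.6%), against 78.2% (76.4 to 79.9%) of first-intron peaks. Both lists held 548 later-intron peaks (49.7%), and neither held 224 (20.3%), against 53.6% and 16.8% of first-intron peaks. The share fell with signal, except from the fourth to the weakest quintile in replicate 1's list. In the strongest quintile of signal, with values of 208.1 or more, replicate 1's list held 99.1% of the peaks and replicate 2's list all of them. In the fourth quintile the shares were 16.8% and 55.9%. In the weakest quintile, with values of 81.7 or less, they were 17.3% and 36.8%. Of the 220 peaks of the weakest quintile 76 overlapped a stronger listed peak, so an overlap counted for them may be that of the neighbour.

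A signal for both replicates, each from the nearest summit within 200 bp in that replicate's own ranked list, was found for 1057 of the 1102 peaks. Over the 1077 peaks matched in replicate 1 its median signal was 45.9, and over the 1069 matched in replicate 2 it was 77.4. The ratio of replicate 2 to replicate 1 had a median of 1.68 (1.64 to 1.73) and quartiles of 1.41 and 2.05, and it was above 1 at 96.0% of these peaks. First introns had a median ratio of 1.68 as well, and all peaks together 1.72. The ratio was 1.83 in the strongest quintile and 1.49 in the weakest. Across the 1057 peaks the log signals of the replicates had a Pearson correlation of 0.85 and the signals a Spearman correlation of 0.77. Peaks are not independent replicates, overlapping peaks can share a matched summit, and both values come from peaks chosen in both libraries together.

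**Figure D1:**
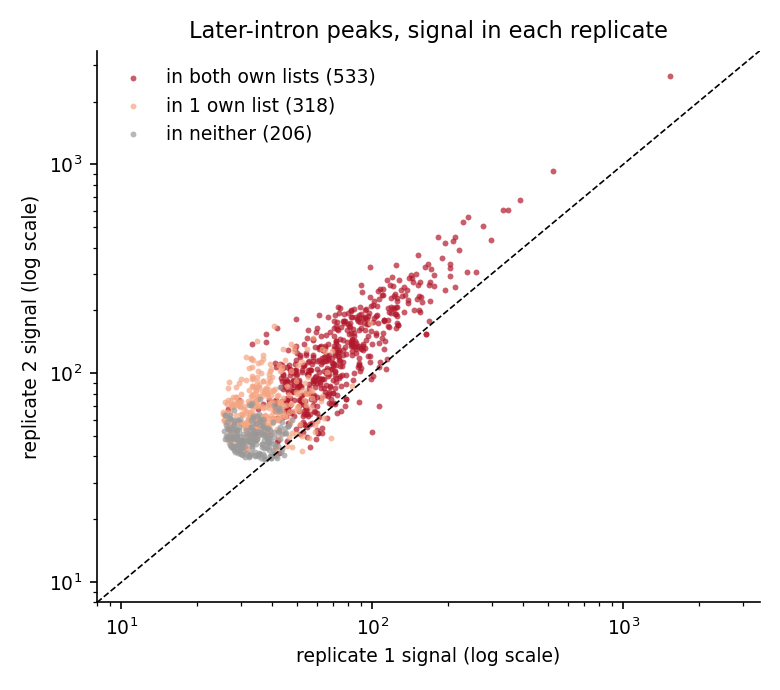
Signal of each later-intron peak in replicate 1 (horizontal, log scale) and replicate 2 (vertical, log scale), for the 1057 peaks with a summit within 200 bp in both ranked lists. Colours give how many of the replicates' own thresholded lists the peak is in, and the dashed line marks equal signal. Most points lie above the line, and the peak at the far upper right is that of CG11050, with 1532 and 2652.

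The weakest members stood beside stronger peaks. Of the later-intron peaks 81 (7.35%) overlapped a stronger peak of the list, and this held for each of the 48 peaks with a signal below 20. The stronger peaks beside those 48 had signals of 66.4 to 414.6. The 1021 peaks without such an overlap had signals of 60.0 or more and a median of 125.6. The lowest signal, 2.17, belonged to a peak in cv-c whose stronger neighbour was the middle-ranked cv-c peak with the CAG repeat shown above, and its replicate values of 34.9 and 74.9 are those of that neighbour. Other weak members were in Sik3, a salt-inducible kinase gene, with 2.38 beside a peak of 162.9, and in spri, which encodes a Rab guanine exchange factor homologue, with 2.44 beside a peak of 75.1. Merged by overlap, the 1102 peaks formed 1022 separate regions that covered 381874 bp.

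Later introns were occupied at a lower rate than first introns and a higher rate than intergenic sequence. The sequence that met the position rule was 26.6 Mb in later introns, which gave 41.4 peaks per Mb, against 106.5 per Mb in 20.5 Mb of first introns, 29.0 per Mb in 31.5 Mb of intergenic sequence and 57.3 per Mb over the 6 arms. The authors' ranked list of the series also holds weaker candidates that missed the threshold. Of 14736 candidate summits in later introns, 7.48% (7.06 to 7.91%) were in the conservative list, against 11.5% (11.1 to 11.97%) in first introns, 7.45% (6.99 to 7.92%) in intergenic sequence and 8.43% over all candidates. Later introns thus had fewer candidates per Mb than first introns, 553.8 against 925.4, and a smaller share of those passed the authors' threshold. The 26.6 Mb took in long genes with almost no candidates of any strength. Myo81F (1537 kb), Pzl (620.5 kb) and DIP-lambda (323.5 kb) had 2 candidates each, and bru3 (233.0 kb) had 1. Later-intron rates without such sequence were not computed, neither the 41.4 per Mb nor those by distance or intron length.

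The difference from first introns held at each distance from the nearest TSS. At 0.5 to 1 kb from a TSS, later introns had 61.2 peaks per Mb (50.2 to 73.9), against 157.9 (144.3 to 172.4) in first introns and 51.9 (44.5 to 60.3) in intergenic sequence. At 5 to 10 kb the rates were 44.0 (39.0 to 49.3) in later introns, against 89.5 (80.6 to 99.2) in first introns and 21.2 (17.9 to 25.0) in intergenic sequence. Beyond 20 kb they were 15.4 (11.3 to 20.7), against 50.9 (32.6 to 75.7) and 5.43 (3.22 to 8.59). Later introns were below first introns in 6 of 6 distance classes and above intergenic sequence in 6 of 6. Within 2 kb of a TSS, however, the intervals of later introns and intergenic sequence overlapped. With first-intron rates weighted to the distances of later-intron sequence, first introns came to 91.3 peaks per Mb. The members lay a median of 4530.5 bp from the nearest TSS (quartiles 2098.5 and 8740 bp), and the farthest lay 47613 bp away. Just inside the distance limit, 14 members lay within 50 bp of it, while 119 listed summits of any kind lay within 50 bp on the other side, too close to a TSS.

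The rates were also set out by length of the intron, without regard to distance from a TSS. In introns of 5 to 10 kb, later introns had 63.3 peaks per Mb (54.8 to 72.6), against 123.1 (112.0 to 134.9) in first introns. In introns under 1 kb later introns had 12.04 (8.75 to 16.2) and first introns 101.4 (79.8 to 127.2), a wider gap. In introns of 50 kb or more the rates were 21.2 (17.4 to 25.5) and 49.1 (40.0 to 59.6). Later introns were lower in 7 of 7 length classes. Their rate was highest at 5 to 20 kb, whereas that of first introns was highest at 1 to 2 kb. The intron around a member had a median length of 12551 bp.

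**Figure D2:**
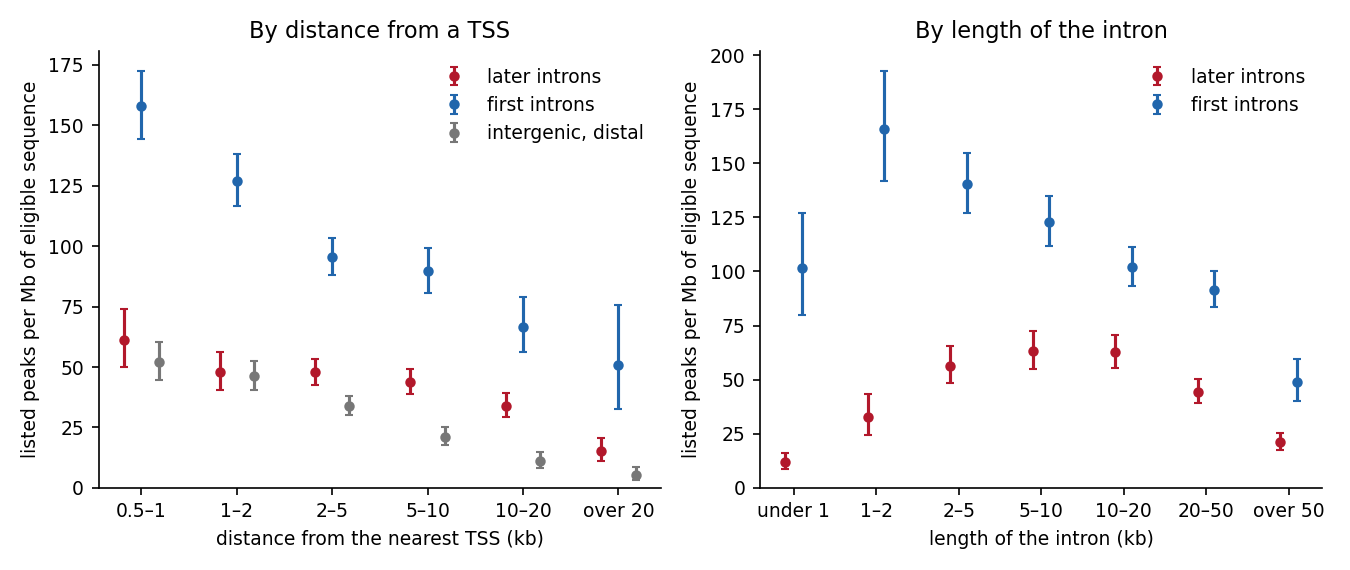
Listed peaks per Mb of eligible sequence (vertical, linear from 0) by distance from the nearest TSS (left) and by length of the intron (right), for later introns, first introns and, on the left, intergenic distal sequence. Bars are exact Poisson 95% intervals. Later introns lie below first introns in every class, with 61.2 against 157.9 peaks per Mb at 0.5 to 1 kb from a TSS.

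The rate was lower for introns farther along the transcript. Introns were numbered from the 5' end of the transcript in which the intron comes earliest. Those numbered 2 held 680 members (61.7%) at 63.4 per Mb (58.7 to 68.3). Those numbered 3 held 214 at 47.2 per Mb (41.1 to 54.0) and those numbered 4 held 88 at 31.1 per Mb (24.9 to 38.3). Introns from number 5 on held 120 at 14.1 per Mb (11.7 to 16.9), up to intron 22. Signal did not follow this order, with medians of 119.96 at number 2, 111.7 at number 3, 139.6 at number 4 and 117.0 from number 5 on. The members' introns had median lengths of 15063.5, 9227.5, 10003 and 6805 bp in that order. Rates by number were not matched for length of the intron, so the 2 cannot be told apart here. Within the introns that held members, equal parts of the intron, 5 of them from 5' to 3', held 245, 257, 220, 206 and 174 peaks. Per Mb of eligible sequence these were 179.1 (157.4 to 203.0), 211.5 (186.5 to 239.0), 189.0 (164.8 to 215.7), 189.0 (164.1 to 216.7) and 169.5 (145.2 to 196.6) and the intervals overlapped. Members lay a median of 1649 bp from the nearest exon, and 6 lay within 50 bp of one.

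The X chromosome had the highest rate, 59.7 later-intron peaks per Mb (52.9 to 67.2), and 3R the lowest of the long arms, 29.5 (25.8 to 33.5). The 7.87 Mb of eligible sequence on 3R took in Myo81F with 1537 kb and Pzl with 620.5 kb, which held no member. Each of these genes had 2 candidate summits, and the rate on 3R without them was not computed. The other long arms had 41.1 on 2R, 42.7 on 3L and 44.3 on 2L. First introns did not share this order, with 107.0 per Mb on X, 100.7 on 3R and 122.6 on 3L. Chromosome 4 had 0 members in 0.196 Mb, which allows up to 18.8 per Mb, and no first-intron peak. Median signals were 121.5 on X and 120.3 on 3R. The sex of the pupae is not recorded in the labels.

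The summits were poorer in G and C than their surroundings. The mean GC content within 50 bp of the summit was 36.7% (SD 10.8, n = 1102), against 40.7% in windows 500 bp to each side and 40.0% (SD 9.24) over the 245794 windows that tile the eligible later-intron sequence. First-intron summits had 36.7% and intergenic ones 35.7%. Of the later-intron summits 359 (32.6%) had a GC content below 30%, against 15.5% of the tiled windows. The dip was narrow: in 51 bp windows the mean was 36.0% at the summit and 44.4% and 44.8% at 150 bp to each side.

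The dip was deeper at higher signal. The summit was 9.63 percentage points below its flanks in the strongest quintile (95% margin over peaks 1.51, n = 221) and 7.78 below in the next (1.67, n = 220). It was 3.99 below in the middle quintile (1.91, n = 221), and in the fourth the difference was -0.56 (1.75, n = 220), within its interval of 0. In the weakest quintile the summit was 1.70 points above its flanks (1.70, n = 220), and 76 of those peaks overlapped a stronger one. First introns gave -9.95 in the strongest quintile and 1.18 in the weakest. In the strongest quintile of later-intron peaks 85.5% of summits were below their flanks, and among the 20 strongest 19 were, the exception being a peak of Hr4 with 51.5% GC against 37.6% in its flanks.

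**Figure D3:**
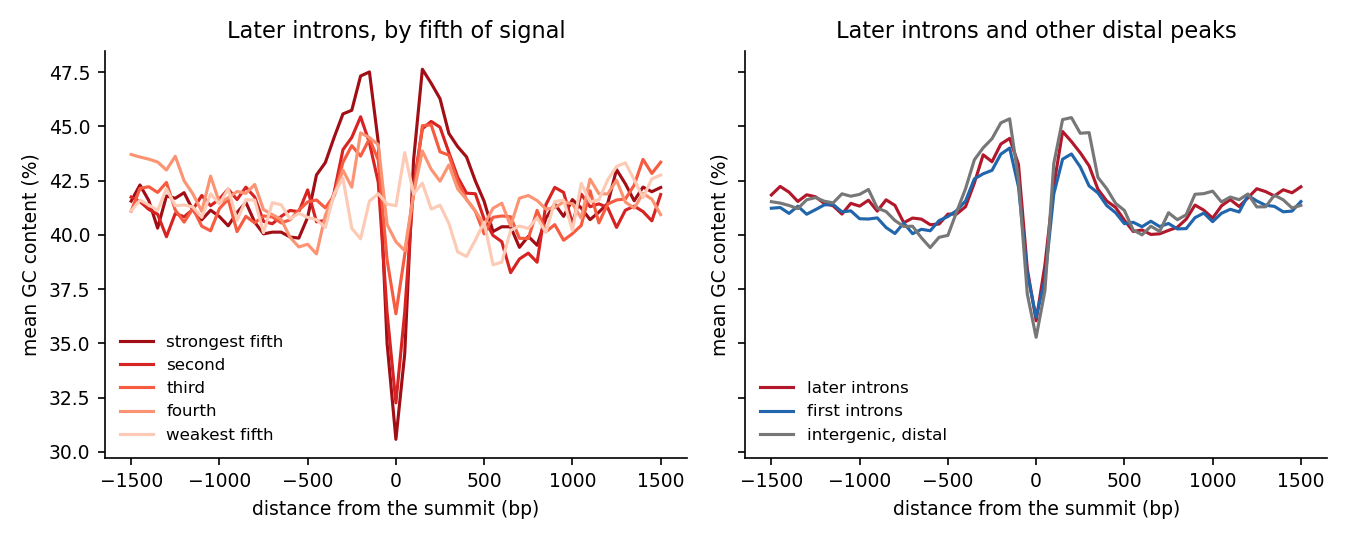
Mean GC content in 51 bp windows (vertical, percent, axis not from 0) by distance from the summit (horizontal, bp), for later-intron peaks by quintile of signal (left) and for later introns, first introns and intergenic distal peaks (right). The strongest quintile dips to 30.6% at the summit between shoulders of 47.5% and 47.6% at 150 bp, and the weakest quintile is at 41.3% at the summit.

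For motifs, both strands were searched over the same 50 bp to each side, and the shares of the flanks and of the tiled windows are given beside them. Because summits were AT-rich, the share in tiles weighted to the summits' GC content is given too. AAAATA was in 35.6% of later-intron summits (32.8 to 38.4%), against 21.9% of flanks, 22.6% of tiles and 29.6% of weighted tiles. A run of 7 A bases, AAAAAAA, was in 19.6% (17.4 to 22.0%), against 11.4%, 10.8% and 13.7%. For both, the interval lay above the weighted tiles. TATAAA was in 17.9% of summits, against 11.5% of flanks and 17.9% of weighted tiles. The GATA-factor site AGATAA was in 7.08% of summits, against 5.54% and 7.02%. Over all members, then, neither stood above sequence of like composition. In the strongest quintile TATAAA was in 25.3% of summits and AGATAA in 12.2%, against 13.2% and 2.27% in the weakest. The strongest quintile was also poorer in G and C, and tiles were not weighted to single quintiles. ATATATA was in 7.35%, against 3.99% and 6.58%, and the homeodomain core TAATTA in 8.89%, against 7.58% and 9.66%. The forkhead core TGTTTAC was in 3.72% (2.75 to 5.01%), against 2.04% of flanks and 2.19% of weighted tiles. Shares of overlapping AT-rich motifs are not independent of each other.

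Sites known from fly promoters and repeats varied, and for some the comparison with flanks and with weighted tiles differed. GAGAGAG, the core of the GAGA element, was in 28 summits or 2.54% (1.76 to 3.65%), against 2.27% of flanks and 1.08% of weighted tiles, and against 2.39% of first-intron summits and 4.38% of summits near a TSS. Its share was 1.36% in the strongest quintile and 4.09% in the weakest. CACACAC was in 4.99% (3.85 to 6.44%), against 3.95% of flanks and 3.09% of weighted tiles. ACAGTG was in 4.36% (3.30 to 5.73%), against 7.34% of first-intron summits and 6.61% of summits near a TSS, and against 4.31% of flanks and 3.20% of weighted tiles. For each of these 3 motifs, the GAGA core, the CA repeat and ACAGTG, the interval took in the flanks and lay above the weighted tiles. The ratio of summits to flanks for ACAGTG, 1.01 in the list used here, was 1.56 in replicate 2's own list. TATCGATA, the replication-related element, was in 0.181% of later-intron summits, against 0.243% of weighted tiles and 1.43% of summits near a TSS. The motif 1 core GGTCACAC was in 0.363%, against 0.140% and 0.921%. TGACAG, a Homothorax site, was in 2.27% (1.54 to 3.33%), against 4.17% of flanks and 3.61% of weighted tiles, and GCCAT, the Pleiohomeotic core, in 14.9%, against 19.5% and 16.6%.

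The other motifs searched were found in fewer than 4% of later-intron summits except CGCG, which was in 10.2% (8.52 to 12.1%), against 12.2% of flanks and 8.45% of weighted tiles, so its direction turned with the comparison. The values that follow are set against weighted tiles. Among E-box forms, CAGCTG was in 2.45% of summits, against 2.77%, and CACGTG in 0.907%, against 0.904%. CAGGTG was in 1.91%, against 2.44%, and CATATG in 3.90%, against 3.09%. The nuclear receptor site AGGTCA was in 1.63%, against 2.25%, and the Zelda site CAGGTA in 1.45%, against 1.68%. The AP-1 site TGAGTCA was in 0.817%, against 0.762%, and the Grainyhead core ACCGGTT in 0.544%, against 0.308%. The Runt site AACCACA was in 1.36%, against 1.45%, and the TEAD site ACATTCC in 1.27%, against 1.053%. For these the interval took in the weighted tiles. It lay below them for the ETS core CCGGAA, at 0.998% (0.558 to 1.78%) against 2.001%, and for the Mef2 core TATTTATA, at 2.18% (1.47 to 3.22%) against 3.32%. It lay above them for the CREB site TGACGTCA, at 0.363% (0.141 to 0.930%) against 0.105%, which rests on 4 summits. For TATTTATA and TGACGTCA the interval took in the share of flanks, 1.996% and 0.272%. A match to such letters describes the sequence and does not show a bound factor.

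Windows of some strong later-intron peaks that held GAGAGAG or ACAGTG follow, with the motif named beside each in capitals. Among the members they ranked 64 at CG5953, 218 at Raf and 34 at Hgsnat. The strongest quintile held 3 summits with GAGAGAG and 7 with ACAGTG, so other holders of that strength are not shown. The CG5953 window also holds an ACAGTG, left in lower case.

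CG5953, GAGA repeat, chr2L:16526141-16526241: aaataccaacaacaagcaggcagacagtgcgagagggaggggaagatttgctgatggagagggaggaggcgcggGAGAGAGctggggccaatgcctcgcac

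Raf, GAGA repeat, chrX:2302257-2302357: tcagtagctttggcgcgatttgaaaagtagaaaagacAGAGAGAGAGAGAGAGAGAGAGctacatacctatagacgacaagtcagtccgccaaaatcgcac

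Hgsnat, ACAGTG, chrX:4919644-4919744: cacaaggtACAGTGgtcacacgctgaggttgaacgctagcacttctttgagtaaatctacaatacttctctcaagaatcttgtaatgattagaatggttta

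Their signals were 352.5 at CG5953, 209.5 at Raf and 431.3 at Hgsnat, with replicate values of 122.2 and 234.5, of 71.1 and 125.0, and of 155.4 and 274.8. All 3 peaks had the higher value in replicate 2. The CG5953 window had a GC content of 59.4%, the Raf window 45.5% and the Hgsnat window 38.6%.

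The 1102 peaks had 488 host genes, or 6.44% of the 7574 protein-coding genes with eligible later-intron sequence. A gene with more such sequence has more room for a peak: hosts had a median of 10.5 kb of it and other genes 0.264 kb. Of the 488 hosts 261 held 1 peak, and 53 held 5 or more and together 410 of the peaks (37.2%). The peaks lay in 592 introns, with up to 15 in a single intron, and 34 members lay in introns of 2 genes at once.

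Hosts also carried peaks elsewhere more often than other genes. A listed summit within 500 bp of a TSS of the gene was found at 263 of the hosts (53.9%, 49.5 to 58.3%), against 25.9% (24.9 to 26.9%) of the genes with eligible sequence and no later-intron peak. A peak in a first intron was found in 195 hosts (40.0%), against 9.55%. Among genes with 5 to 20 kb of eligible sequence, a TSS peak was found at 64.2% of hosts (57.3 to 70.5%), against 27.6% (23.5 to 32.2%) of the other genes, and above 20 kb at 54.8% (46.7 to 62.6%), against 20.8% (15.5 to 27.2%). Under 1 kb the shares were 28.0% of 25 hosts (14.3 to 47.6%) and 24.99% of the rest, and from 1 to 5 kb they were 40.5% of 116 hosts (32.0 to 49.6%) and 31.2% (28.4 to 34.2%), so in both classes the intervals overlapped. Hosts also had more annotated TSSs, with a median of 2 against 1. Conversely, 169 hosts (34.6%) had neither a TSS peak nor a first-intron peak.

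The 12 genes with most later-intron peaks held 10 to 19 each. kirre, an immunoglobulin adhesion protein of myoblast fusion, held 19 peaks in 266.0 kb, with signals of 71.6 to 498.0, of which 12 were in both own lists. The peak of 498.0 also lay in an intron of another gene, 3364 bp long. Hr4, a nuclear receptor induced by ecdysone, held 18 in 28.7 kb, a rate of 6.28 per 10 kb against 0.71 in kirre. The highest Hr4 peak had 229.5 in replicate 1 and 532.7 in replicate 2, and its median peak 102.1. CG1677 held 16 peaks and Eip75B, a nuclear receptor gene of the early ecdysone response, 13. Eip74EF, an ETS-domain ecdysone target, and mam each held 12. tai, the Taiman coactivator of the ecdysone receptor, held 11, as did msn and Hipk, which encode kinases, and hth, which encodes a homeodomain partner of Hox proteins. Raf and bun, which encodes a TSC22-family protein, held 10 each.

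These hosts differed in what lay outside their later introns. Eip75B had 11 first-intron peaks and a TSS peak of 485.7, and Eip74EF had 9 and a TSS peak of 196.0. CG1677, msn and Raf had no listed summit at a TSS and no first-intron peak, so the 16, 11 and 10 later-intron peaks were all that the list held in those classes. At msn the top peak had 126.0 in replicate 1 and 169.5 in replicate 2, and at CG1677 the highest signal was 293.7.

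**Figure D4:**
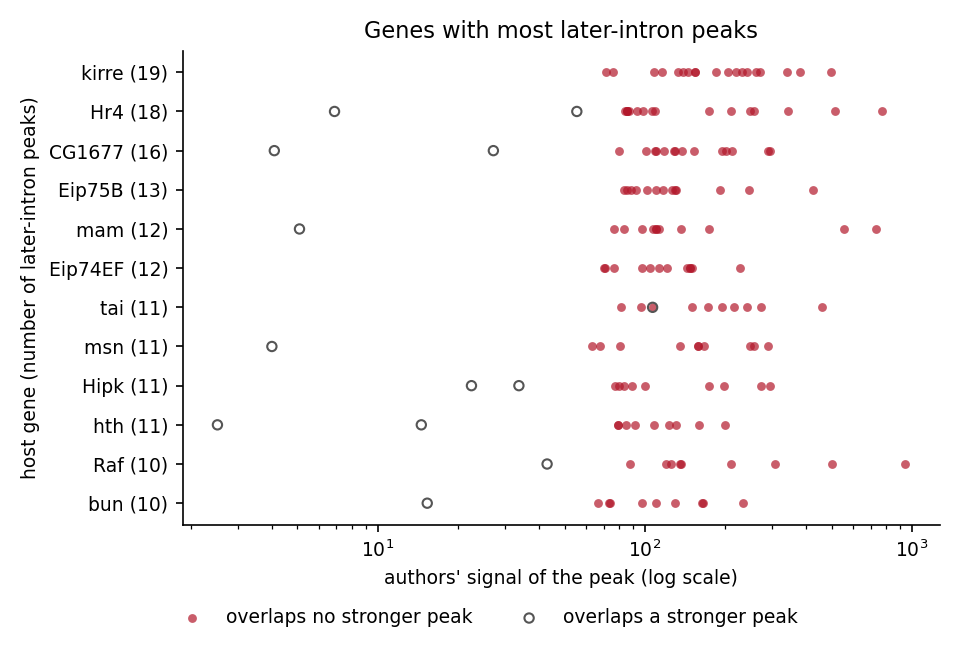
Authors' signal (horizontal, log scale) of each later-intron peak in the 12 genes with most of them, 1 row a gene with its number of peaks in brackets. Filled points overlap no stronger peak of the list and open points do. Hr4, Raf and mam hold single peaks above 700, and the points below 20 are all open.

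Genes were further grouped by lists of pathways and families. For each list the number of hosts is read beside the 6.44% of all genes and the number of peaks beside the 41.4 per Mb of all eligible sequence. The share of hosts rose with eligible sequence, from 0.452% of genes under 1 kb to 10.4% at 1 to 5 kb. It was 33.6% at 5 to 20 kb and 44.4% from 20 kb on. Median eligible sequence was 0.299 kb over all genes, but 12.1 kb in the ecdysone list and 12.6 kb in the neural RNA-binding list. The 6.44% is therefore not matched to the lists for length. Genes of the ecdysone response, the steroid pathway that drives metamorphosis, had 11 hosts of 23 with eligible sequence and 82 peaks at 229.8 per Mb (182.7 to 285.2). Beside those already named, E23 held 4 peaks, with 222.3 in replicate 1 and 387.4 in replicate 2 at the highest. ftz-f1, the nuclear receptor of the prepupal competence step, held 8, with 114.9 and 281.1 at the highest. EcR, the ecdysone receptor itself, held 5, Hr39 5, Eip93F 4, and Eip78C and chinmo 1 each. Eip63E with 45.6 kb and br with 15.6 kb of eligible sequence held none. Without Hr4, which gave 18 of the 82 peaks, the rate was 195.0 per Mb (150.2 to 249.0).

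Signalling lists ranged from 64.8 to 182.2 peaks per Mb, and in several a single host gave much of the count. Of 17 Notch pathway genes 7 were hosts, with 26 peaks at 108.9 per Mb (71.1 to 159.5), or 74.1 (40.5 to 124.4) without mam. In signal mam led them, and N, the receptor, held a peak with 156.1 in replicate 1 and 232.3 in replicate 2. kuz, the protease that cleaves Notch, reached 225.8 and numb, its inhibitor, 172.8. The Wingless, Hedgehog and Dpp genes had 9 hosts of 27 and 26 peaks at 114.7 per Mb (74.9 to 168.1). The Dpp pathway corepressor shn reached 351.8, the Wingless co-receptor arr 280.0 with 7 peaks, the inhibitor Dad 277.4 and the ligand wg 271.7. Among the receptor tyrosine kinase genes 3 of 17 were hosts, namely Raf, the ETS factor pnt (110.8 in replicate 1 and 253.5 in replicate 2) and Src42A, and rl with 34.0 kb held none. Their 16 peaks came to 105.9 per Mb (60.6 to 172.1), but 10 of them were in Raf, and the rate without it was 47.5 (17.4 to 103.3). The Hippo genes ex, ds and wts reached 296.8, 253.7 and 132.1, and were 3 of 11, at 64.8 per Mb (26.1 to 133.6) with wts and 29.3 (6.04 to 85.6) without it. In the insulin pathway S6k, InR and foxo reached 153.7, 139.0 and 119.8, and were 3 of 16. Their 9 peaks in 0.0494 Mb came to 182.2 per Mb (83.3 to 345.96), or 154.2 (50.1 to 359.7) without InR.

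Genes of junctions, polarity and the cytoskeleton had 14 hosts of 34 and 37 peaks at 114.1 per Mb (80.3 to 157.2), or 86.7 (56.7 to 127.1) without msn. The highest were Zasp52, a Z-disc and integrin-site protein, with 98.0 in replicate 1 and 324.3 in replicate 2, msn, scrib at 208.7 and Cip4 at 183.6. Kinase and calcium signalling genes had 9 of 30 at 69.5 per Mb (46.2 to 100.4), or 44.9 (26.2 to 71.9) without msn, with Pka-C3 at 474.1, Pka-C1 at 353.9 and Pkn at 347.4. Cell cycle genes had 4 of 21, Myc at 648.8, Mnt at 283.0, Cdk4 at 96.2 and E2f1 at 78.6. Their 10 peaks in 0.0442 Mb came to 226.0 per Mb (108.4 to 415.6), close to the rate of the ecdysone list, or 166.2 (61.003 to 361.8) without Myc. Myc and Mnt, which share the partner Max, held 4 peaks each.

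Transcription and chromatin genes varied. The BTB zinc finger genes had 7 hosts of 20 and 18 peaks at 73.6 per Mb (43.6 to 116.3), or 55.6 (26.7 to 102.3) without mamo. Trl led, psq, a pipsqueak-domain protein, reached 449.2, mamo 167.0 with 8 peaks and chinmo 164.9, while ab with 27.6 kb and lola with 26.4 kb held none. Patterning transcription factors had 7 hosts of 39 at 69.7 per Mb (46.7 to 100.2), or 54.8 (32.5 to 86.6) without hth, with bun at 232.6, hth at 199.5, sbb at 188.8 and ct at 169.5, and the Hox genes pb with 27.5 kb and Antp with 19.3 kb held none. Polycomb, Trithorax and Brahma genes had 4 hosts of 28, Trl, Psc, skd at 140.6 and kis at 139.5, at 96.2 per Mb (31.2 to 224.5), and osa with 14.8 kb held none. CG32121 had 0.745 kb of eligible sequence and no member, and its own listed peak, with a signal of 237.2, lay in a first intron.

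Neural RNA-binding, immunoglobulin adhesion and axon guidance genes had rates whose intervals took in the 41.4 of all eligible sequence. Neural RNA-binding genes had 13 hosts of 23 and 33.9 peaks per Mb (22.9 to 48.4). Their highest were heph, a splicing repressor, with 166.2 in replicate 1 and 332.3 in replicate 2, pum, a translational repressor, with 124.5 and 328.9, msi at 385.2 and how at 210.4, while bru3 held none in 233.0 kb. Immunoglobulin adhesion genes had 7 of 25 at 42.8 per Mb (30.6 to 58.3), or 31.5 (19.5 to 48.1) without kirre, with kirre, Nrg at 354.1, Ptp10D at 347.4 and ed at 181.8, and Ptp99A with 77.8 kb held none. Axon guidance genes had 9 of 22 at 54.7 per Mb (31.9 to 87.6), with trio at 433.2, Sema1a at 358.8, Sema5c at 247.0 and NetA at 222.1.

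Neuronal receptor, channel and synapse genes held few peaks for their length. The dpr and DIP genes, which encode paired immunoglobulin receptors of neurons, had 2 hosts of 32 and 2 peaks in 1.01 Mb, or 1.99 per Mb (0.24 to 7.18). Those were DIP-alpha at 112.0 and dpr6 at 107.1. Of the 1.01 Mb, DIP-lambda had 323.5 kb with 2 candidate summits and dpr21 had 123.4 kb with 0, and neither held a member. Ion channel genes had 4 of 33 at 14.3 per Mb (6.55 to 27.2), or 8.35 without Ca-beta, with NaCP60E at 265.9 and Ca-beta at 147.6, and nAChRalpha6 with 69.5 kb held none. Cadherin, teneurin and leucine-rich repeat genes had 6 of 15 at 18.4 per Mb (9.82 to 31.5), with Ten-a at 392.9, ds, Cad99C at 211.9 and Cad87A at 177.4. Synapse genes had 4 of 23 at 16.7 per Mb (5.42 to 38.9), or 10.4 without Pka-C1, with Pka-C1, Syn at 340.3, dlg1 at 128.7 and Pka-R2 at 107.2. Outside the nervous system, muscle genes had 3 hosts of 21, Msp300, Zasp52 and how, at 49.6 per Mb (23.8 to 91.2), or 28.1 without Msp300. Cuticle and pigment genes had 2 of 20, t at 183.3 and dsx at 84.7, at 38.9 per Mb (4.71 to 140.4), apoptosis and autophagy genes 1 of 15, Atg5 at 118.0, and circadian genes 0 of 13 in 0.0221 Mb, which allows up to 167.0 per Mb.

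Some of the longest later-intron sequence held no member. Myo81F had 1537 kb of it and Pzl 620.5 kb, with 2 candidate summits each and the highest candidate signal at 12.6 and 9.26. CG15465 and rg, which overlap, had 122.6 kb with 81 candidates, of which the highest had a signal of 55.6, below the 60.0 of the weakest member without a stronger neighbour.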

How the data were processed

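ChIP-seq peak lists in dm6, the build named per the labels, were used as deposited by the authors: for the series and for each of 2 replicates, ranked and thresholded lists. The signal per peak is a deposited value of unstated scale. The deposited −log10 values are the q value and, in the ranked lists, the global irreproducible discovery rate (IDR). How reads were aligned and peaks called is not stated in these sources. Every peak of the conservative list had a global IDR of 0.01 or below. Notes deposited with the samples name an additional source, not described, for the thresholded lists. Depth is unknown.

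Summits were set against Ensembl release 115 and the RefSeq Release 6 genome, whose arm lengths equal those of dm6, on 6 arms, with Python 3.11.15, numpy 2.4.6, pandas 2.3.3 and scipy 1.17.1. Eligible sequence is every base that meets the position rule. Shares carry Wilson intervals and rates exact Poisson intervals at 95%. No test was run, since there is 1 group with no control. The members, the 24 gene lists and the 28 motifs were chosen with earlier results of these data known. Through recorded synonyms 14 symbols were updated, and 6 were not matched. Replicate numbers only name the samples. Named are the hosts of the 20 strongest and 3 weakest members, the 12 genes with most members, up to 4 hosts and 2 genes without a member per list, up to 2 genes overall of longest eligible sequence without one, and CG32121. Some genes within this rule are left unnamed, and a gene list and a sequence are not reported here. CG15465, rg and the further hosts of the ecdysone list were named after their values were seen. The classes and the replicate matching were tested on simulated data. Alternatives were other lists, each replicate alone, a stricter IDR, other distances and windows.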

Additional observations from a re-analysis of the deposited data

Results flagged for a closer look

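Some later-intron peaks of the authors' further lists overlapped no peak of the conservative list, and their values are not described above. The other thresholded list of the series had 197 such peaks of 1224, or 16.1%, with a median signal of 75.1, against 124.9 for those that overlapped. Replicate 2's own list had 142 of 990, or 14.3%, with a median of 58.0, against 90.4. Replicate 1's own list had 35 of 619, or 5.65%, with a median of 41.8, against 65.6. A later-intron position in ftz-f1 led the peaks of this kind in both replicates' lists, with summits 88 bp apart and signals of 154.9 in replicate 2 and 63.2 in replicate 1. The ranked list of the series held 12 later-intron candidates that met the IDR limit and yet were absent from the conservative list, with a median signal of 220.0 and a highest of 1212, and none of them overlapped a listed peak. Genes beside these 12 can read as having no member. There was no control sample to set these peaks against, and why they are missing from the conservative list was not tested.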

How the results depend on the processing

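Of 127 values recomputed under alternatives, 97 stayed within their limits, which were 1.5 times for counts, rates and motif ratios, the binomial interval for medians and shares, and the spread of the replicates for GC content. With each replicate's list alone there were 619 to 990 peaks, 23.3 to 37.2 per Mb, a median ratio of replicate signals of 1.67 to 1.85, a summit GC content of 34.7 to 36.3% and a difference from flanks of -6.48 to -4.55 points. A global IDR of at most 0.001 left 577 peaks at 21.7 per Mb, with a median signal of 175.0, 86.7% in both own lists, a ratio of 1.73, a GC content of 33.9% and -7.31 points against flanks. The other thresholded list gave a median signal of 112.1, a ratio of 1.77 and 46.3% in both own lists. Windows reaching 100 bp to each side gave 38.8% GC and -1.97 points. Members without a stronger neighbour, an alternative chosen after seeing the data like the one without transposable element annotations, had a median signal of 125.6.

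The dip in GC content and the excess of AAAATA and TATAAA over flanks kept their direction under each alternative that recomputed them. The ratio of summits to flanks for ACAGTG was 1.01 and passed to 0.909 at the stricter IDR, 1.00 and 0.977 at TSS distances of 250 and 1000 bp, 0.968 for whole peaks outside exons and first introns and 0.970 with flanks at 1000 bp, whereas it was 1.24 to 1.56 with each replicate alone and 2.00 in windows reaching 100 bp to each side. For CACACAC it was 1.26, against 0.938 to 1.01 with each replicate alone and 0.815 at the stricter IDR. For GAGAGAG it was 1.12, against 0.941 to 1.33 with each replicate alone and 0.600 at the stricter IDR. The cause was not tested. No paired analysis was possible because the result comes from no test and there is 1 group. Host genes by list and the comparisons with other classes were not recomputed under the alternatives, unlike the host count, which was 321 to 525. Depth is unknown, so a position without a peak is not shown to be unbound.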
